A study of Mus musculus with 40 samples.

Results

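The nuclear genes of respiratory chain complexes I to IV were examined by microarray in RNA of the whole pancreas, with 1 array for each of 40 male C57BL/6J mice. Members were taken by symbol: probes whose platform symbol begins with Nduf, Sdha to Sdhd, Uqcr, Cox4, Cox5, Cox6, Cox7 or Cox8, or is Cyc1 or Cycs. This gave 96 of 25697 probes for 75 of 16593 named genes, by a rule that holds no expression value. The choice to examine this set was, however, made with earlier results of these data known. Dams had eaten a high fat (HF) or a low fat (LF) diet before mating, through pregnancy and until weaning, and their sons were placed on either diet at weaning and killed at 9 weeks of age. The dam diet is written first and the diet of the mouse after it: HF_HF, HF_LF, LF_HF and LF_LF, with 10 mice each. All 4 groups were males of 1 inbred strain, and coconut oil was the chief fat of both diets. The labels place the mice in 12 cages, each with 1 dam diet. Cages are taken here as birth cages because 5 of them hold mice on both diets; HF_HF mice came from 4 cages, HF_LF mice from 5, LF_HF mice from 4 and LF_LF mice from 4. Mice of 1 cage are not independent draws of a dam, and p-values over mice measure the spread between these mice. Each value is a level in the whole gland: fewer cells of a type and less RNA per cell cannot be told apart.

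The respiratory chain is a series of protein complexes in the inner mitochondrial membrane. Complex I takes electrons from NADH and complex II takes them from succinate, both pass them to ubiquinone, complex III moves them on to cytochrome c, and complex IV hands them to oxygen, while complexes I, III and IV pump the protons that drive ATP synthase. Most subunits are encoded in the nucleus, a few in mitochondrial DNA, and those few were not analysed here. In the pancreas, ATP serves the synthesis and secretion of digestive enzymes in acinar cells, and in beta cells it couples glucose to insulin release.

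Deposited signals ran from 43 to 35587.5 intensity units with a median of 62.9 to 63 on every array, and any pair of arrays correlated at 0.929 to 0.992. Markers of acinar cells, the bulk of the gland, were bright: the mean log2 level of 17 acinar genes was 13.57 to 13.86 in all groups. On average over both dam diets, 11 of these 17 genes were higher and 6 were lower on the HF diet, and 2 passed the test, both transcription factor genes (Ptf1a and Bhlha15, higher). All 10 myeloid markers were higher on the HF diet and 0 passed, and 0 passed among the islet, duct, adipocyte, brown adipocyte, striated muscle, hepatocyte, T and NK cell, fibroblast and endothelial markers. By dam diet, all 10 myeloid markers were higher on the HF diet among sons of HF dams. Among sons of LF dams, 3 were higher and 7 were lower. LF_LF 1, LF_HF 1 and HF_HF 5 stood apart from the other arrays. LF_LF 1 had the highest adipocyte level of its group (9.08, against a group median of 7.11) and the highest myeloid level (8.67, against 7.05), HF_HF 5 the highest myeloid level of HF_HF mice (8.70), and LF_HF 1 the highest hepatocyte level of LF_HF mice (10.23, against 7.10). The part of these other cells in the results below was not tested, and values without the 3 arrays are given where they bear on a result.

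A probe was tested where it lay above the median of its array on at least 20 of the 40 arrays, which kept 81 member probes for 67 genes. Complex I kept 41 of 43 probes (32 of 33 genes), complex II 5 of 6 (3 genes), complex III 8 of 10 (7 of 9 genes) and complex IV 15 of 21 (13 of 18 genes). Ndufa4, long listed in complex I and now placed in complex IV, was kept apart with 1 probe, cytochrome c (Cycs) kept 1 of 2 probes, assembly factors (Ndufaf and Sdhaf symbols) kept 9 of 12, and a pseudogene (Ndufs5-ps) kept 1. The 8 genes with no tested probe were Ndufs1, Uqcrfs1, Uqcrq, Cox4i2, Cox6b2, Cox7b2, Cox8b and Cox8c. Ndufs1, Uqcrfs1 and Uqcrq code for subunits that every respiring cell needs, so their dim probes give no level for these genes. Sdha and Ndufa4l2 were not analysed here.

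The question of the first comparison was whether the diet after weaning moved these genes, over both dam diets. A small set of complex I probes was lower in HF-fed mice, led by Ndufv2, with Ndufa5, Ndufs4 and Ndufc2. Also lower were probes of Ndufa4, Cox7a2l and the assembly factor gene Sdhaf4. Ndufa10 and Cox5a were higher. These 9 of 81 member probes (11.1%) passed limma's test at an adjusted p under 0.05, against 5.22% of all 12246 tested probes. By direction, 7 were lower, where 2.47% of all tested probes were, and 2 were higher, where 2.75% were. Ndufa5 passed on 1 of its 2 probes and Ndufs4 on 1 of its 4. Genes said below to have fallen or risen are counted by their called probe. Over all 81, 41 probes were higher and 40 were lower, with a median log2 difference of 0.00, as for all tested probes (-0.00). No member's HF and LF values were free of overlap, and the 9 differences ran from 1.09-fold to 1.23-fold. Without the 3 arrays that stood apart 11 members passed, of 923 among all tested probes, where the fit to all arrays had 639. With array weights 15 members passed of 1261, with 1 mean per cage and group 5 (all lower) of 178, and with cage as a fixed block 2 of 191.

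**Figure D1:**
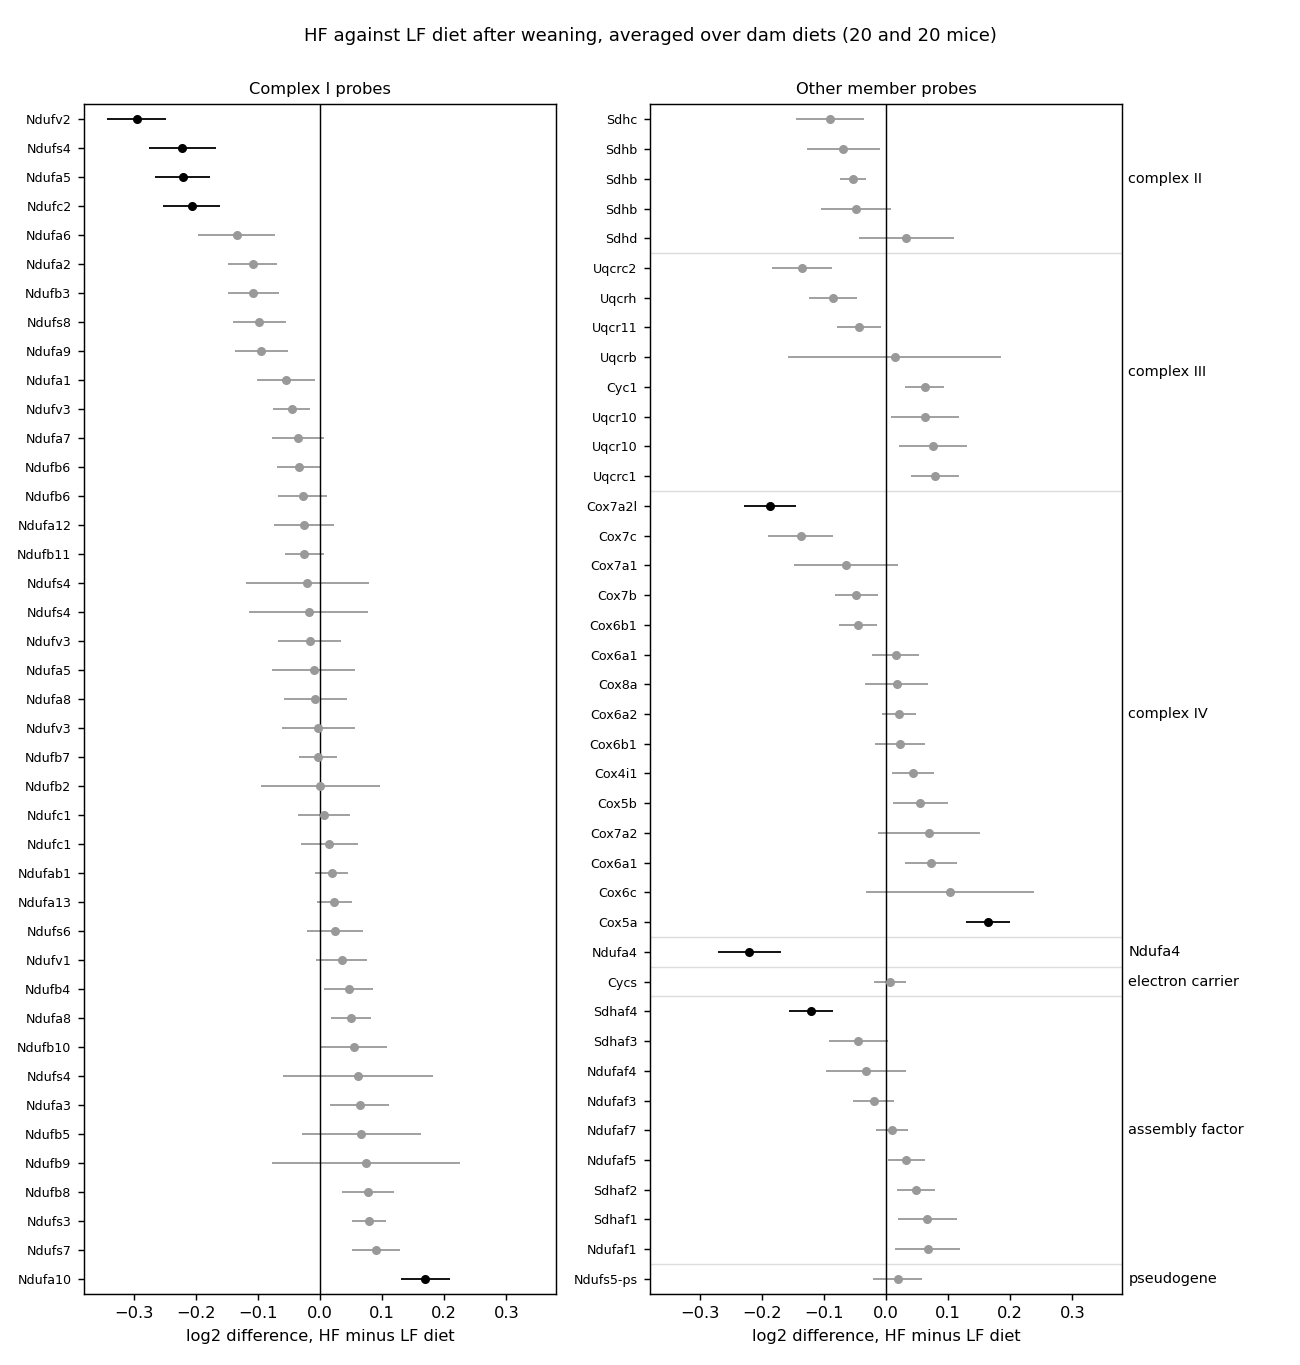
Each point is a tested member probe, the x axis is its log2 difference between HF-fed and LF-fed mice averaged over dam diets (20 and 20 mice), and bars are SE. Black marks the 9 probes with an adjusted p under 0.05, of which 7 lie left of 0 (down to -0.30 for Ndufv2) and 2 lie right of it; grey marks the other 72.

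Ndufv2, one of the core subunits of complex I, carries an iron-sulfur centre beside the site where NADH is oxidized. The lowest, median and highest intensities of Ndufv2 were 425, 505 and 594 in HF_HF mice, 543, 634 and 766 in HF_LF mice, 459, 517 and 618 in LF_HF mice and 481, 624 and 716 in LF_LF mice. All 20 HF-fed mice lay below the median of the 20 LF-fed mice, although the ranges overlapped. The log2 difference was -0.30 ± 0.05 (SE), a 1.23-fold fall (limma, adjusted p = 0.000206), the lowest adjusted p among members.

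Ndufa5, an accessory subunit of the arm that reaches into the matrix, had intensities of 445, 478 and 588 in HF_HF mice, 552, 599 and 688 in HF_LF mice, 474, 501 and 609 in LF_HF mice and 425, 589.8 and 636 in LF_LF mice (lowest, median, highest). The LF_LF array at 425 units was LF_LF 1, and every other LF_LF array was at or above 518 units. 19 of 20 HF-fed mice lay below the median of the LF-fed mice, and the log2 difference was -0.22 ± 0.04 (1.17-fold lower, limma adjusted p = 0.00204). A second, dimmer Ndufa5 probe differed by -0.01 ± 0.07 (adjusted p = 0.96), and over the 40 arrays both probes correlated at -0.13.

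Ndufc2, a small subunit of the membrane arm, had intensities of 464, 521 and 632 in HF_HF mice, 508, 625 and 718 in HF_LF mice, 450.4, 509 and 625 in LF_HF mice and 501, 593 and 671 in LF_LF mice. 18 of 20 HF-fed mice lay below the LF-fed median (log2 difference -0.21 ± 0.05, 1.15-fold lower, limma adjusted p = 0.00448). Ndufs4, an accessory subunit that holds the NADH-oxidizing module to the rest of the complex and whose loss in mice gives a Leigh-like brain disease, was called on 1 of its 4 probes. That probe gave 436, 479.7 and 622 in HF_HF mice, 498, 570.0 and 689.5 in HF_LF mice, 400.0, 455 and 532 in LF_HF mice and 389, 540.4 and 620.5 in LF_LF mice. The groups overlapped, 19 of 20 HF-fed mice lay below the LF-fed median, and the log2 difference was -0.22 ± 0.05 (1.17-fold lower, limma adjusted p = 0.00915). The other Ndufs4 probes differed by -0.02, -0.02 and 0.06, correlated with each other at 0.94 to 0.95 and with the called probe at -0.03 to 0.15. The fall was thus measured on 1 of 4 Ndufs4 probes.

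Ndufa10, a matrix-facing subunit with the fold of a nucleoside kinase, moved the other way, with 433, 469.6 and 544 in HF_HF mice, 368, 439.5 and 469 in HF_LF mice, 474, 514 and 582 in LF_HF mice and 369, 467 and 511 in LF_LF mice. 17 of 20 HF-fed mice lay above the LF-fed median (log2 difference 0.17 ± 0.04, 1.12-fold higher, limma adjusted p = 0.00716). Of the other 36 complex I probes, none passed the test. Among core subunits, Ndufs3 and Ndufs7 differed by 0.08 ± 0.03 and 0.09 ± 0.04, and Ndufs8 and Ndufv1 by -0.10 ± 0.04 and 0.03 ± 0.04, with adjusted p of 0.0857, 0.178, 0.191 and 0.715 in limma. The core subunits did not share a sign: 3 of the 5 tested were higher and 2 were lower. Over all 41 complex I probes, 18 were higher and 23 lower, with a median of -0.01.

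**Figure D2:**
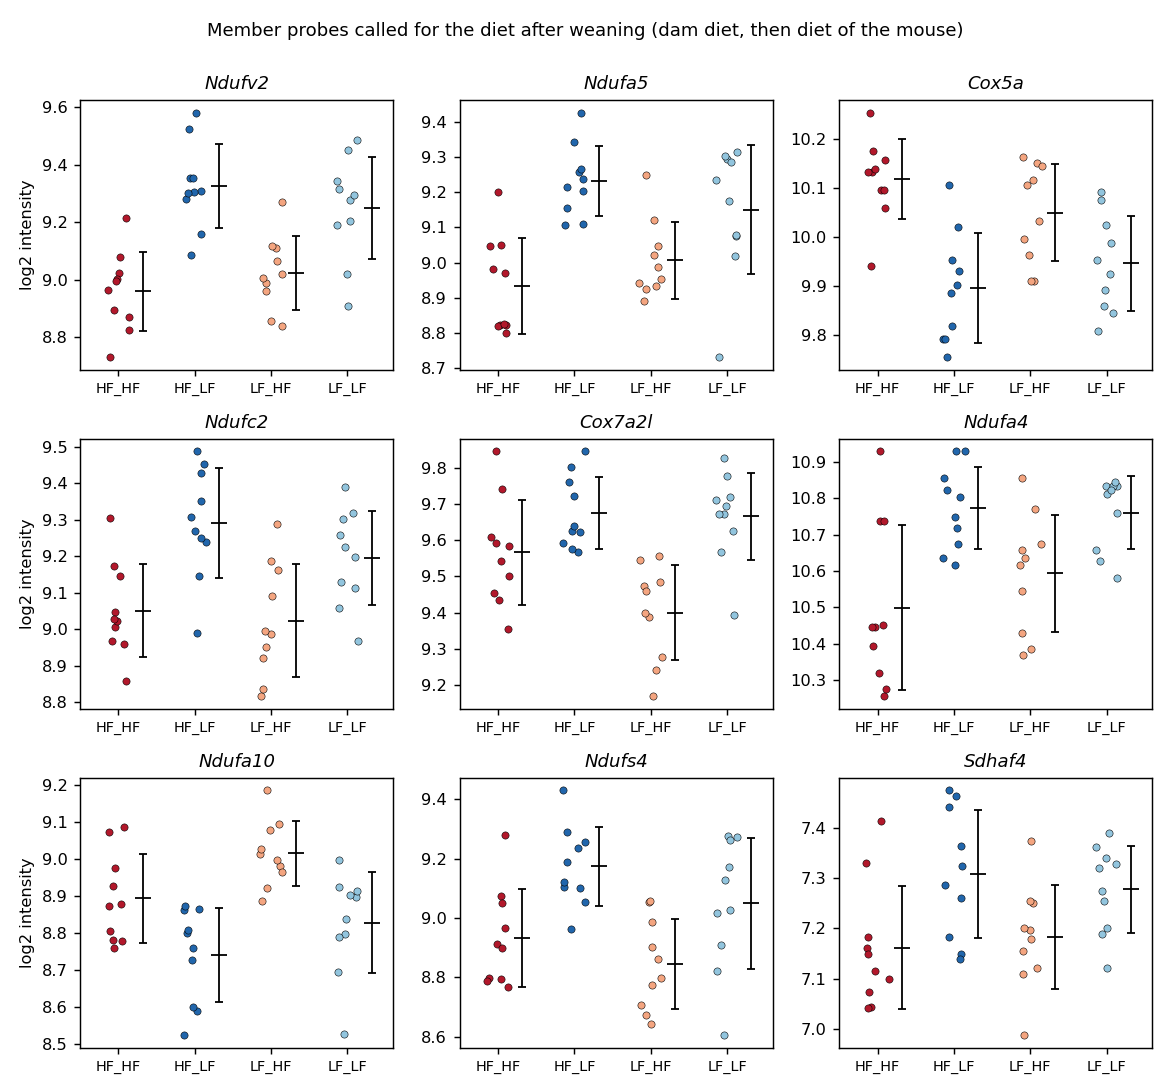
Each panel is a called member, each point is a mouse, the y axis is log2 intensity, and the mark and bar beside each group are its mean and SD (n = 10). In all 9 panels the 2 HF-fed groups (HF_HF and LF_HF) sit to one side of the 2 LF-fed groups in the mean, with overlapping points; the lowest LF_LF point for Ndufa5 is LF_LF 1.

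Nuclear respiratory genes are classically linked to the factors NRF1, GABP, ERR, YY1 and SP1, so the sequence upstream of the called genes is shown with their motifs. RefSeq (GRCm38.p6) gave the 250 bases before the start for 61 of the 75 member genes and for all 9 called ones. Where several starts were listed, the one farthest upstream was taken. The windows of Ndufv2 and Ndufa5, the called genes with the smallest adjusted p among those that fell, and of Cox5a and Ndufa10, the genes that rose, are shown 5′ to 3′ in the direction of the gene, with capitals for matches to 1 of 6 motifs searched on both strands.
Ndufv2, chr17:66101560-66101809, minus strand: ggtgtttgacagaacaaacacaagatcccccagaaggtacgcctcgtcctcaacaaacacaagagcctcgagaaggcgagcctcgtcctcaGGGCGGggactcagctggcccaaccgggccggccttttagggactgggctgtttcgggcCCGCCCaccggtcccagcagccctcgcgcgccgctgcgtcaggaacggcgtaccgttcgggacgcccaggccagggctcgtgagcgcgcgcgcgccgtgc
Ndufa5, chr6:24527691-24527940, minus strand: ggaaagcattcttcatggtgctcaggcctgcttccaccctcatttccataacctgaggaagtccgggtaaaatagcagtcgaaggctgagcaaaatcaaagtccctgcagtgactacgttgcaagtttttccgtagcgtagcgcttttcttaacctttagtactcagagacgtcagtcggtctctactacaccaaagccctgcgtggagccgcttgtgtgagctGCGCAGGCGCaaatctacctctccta
Cox5a, chr9:57520982-57521231, plus strand: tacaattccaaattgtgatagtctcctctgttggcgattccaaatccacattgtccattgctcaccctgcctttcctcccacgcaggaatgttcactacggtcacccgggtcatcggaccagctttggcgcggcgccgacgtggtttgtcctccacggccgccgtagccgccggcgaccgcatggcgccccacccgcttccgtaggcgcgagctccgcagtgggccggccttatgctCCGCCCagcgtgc
Ndufa10, chr1:92473759-92474008, minus strand: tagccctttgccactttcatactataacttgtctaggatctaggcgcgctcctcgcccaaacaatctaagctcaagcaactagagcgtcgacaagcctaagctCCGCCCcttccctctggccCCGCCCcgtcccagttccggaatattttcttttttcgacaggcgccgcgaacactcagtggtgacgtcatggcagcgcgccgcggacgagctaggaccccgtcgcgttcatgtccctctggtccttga
The capitals are SP1 matches (GGGCGG), except in Ndufa5, where they are a match to NRF1 (GCGCA, any base, then GCGC). Among members, 11.5% of windows held the NRF1 letters, against 3.87% of all 27025 promoters and 7.9% of those of the tested genes. For GABP and other ETS factors (CCGGAAG) the shares were 18% of members, 7.07% of all promoters and 13% of tested genes, and for YY1 (AANATGGC) 9.84%, 3.91% and 4.4%. ERR (AAGGTCA) was found in 3.28%, 4.04% and 3.19%, CCAAT in 39.3%, 34.5% and 37%, and SP1 in 44.3%, 33% and 55.9%. Of the 7 genes that fell, 1 held NRF1 (Ndufa5), 3 held SP1 (Ndufv2, Cox7a2l and Sdhaf4), 1 held CCAAT (Ndufc2), and 0 held GABP, ERR or YY1. Both genes that rose held SP1 alone. A match is a description of letters and not of binding.

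Complex II, which also works in the tricarboxylic acid cycle, had no called probe among 5. The 2 brighter probes of Sdhb, the iron-sulfur subunit, differed by -0.07 ± 0.06 and -0.05 ± 0.06 (limma adjusted p = 0.579 and 0.713), and the dim one, close to the array median, by -0.05 ± 0.02 (adjusted p = 0.133). The membrane anchors Sdhc and Sdhd differed by -0.09 ± 0.05 and 0.03 ± 0.08 (adjusted p = 0.385 and 0.87). Sdhc intensities were 194, 223 and 255 in HF_HF mice, 204, 244 and 293 in HF_LF mice, 192, 217 and 253 in LF_HF mice and 183, 223 and 292 in LF_LF mice, overlapping throughout. The factor that helps to build the complex by binding its flavoprotein subunit, Sdhaf4, was the one called. It gave 132, 140.3 and 170.5 in HF_HF mice, 141, 158 and 178 in HF_LF mice, 127, 146 and 166 in LF_HF mice and 139, 157 and 168 in LF_LF mice, and 17 of 20 HF-fed mice lay below the LF-fed median (log2 difference -0.12 ± 0.04, 1.09-fold lower, limma adjusted p = 0.039). The Sdhaf4 call was lost without any 1 of 8 of the 12 cages, and without any 1 of 19 of the 40 arrays. The other 8 assembly factor probes, among them Sdhaf1, Sdhaf2, Sdhaf3 and the Ndufaf genes, did not pass.

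Complex III had no called probe among 8. Its 2 core proteins had opposite signs: Uqcrc1 differed by 0.08 ± 0.04 and Uqcrc2 by -0.14 ± 0.05 (limma adjusted p = 0.255 and 0.0897). Uqcrh, the hinge protein that helps cytochrome c1 meet cytochrome c, differed by -0.09 ± 0.04 (adjusted p = 0.198) and both Uqcr10 probes by 0.06 and 0.08. Cytochrome c1 itself (Cyc1) gave 293, 323 and 354 in HF_HF mice, 294, 316 and 344 in HF_LF mice, 303, 334 and 358 in LF_HF mice and 285, 321 and 354 in LF_LF mice, a difference of 0.06 ± 0.03 (adjusted p = 0.262). The mobile carrier cytochrome c (Cycs) was measured only near the array median, at 62.5, 68.5 and 70.6 in HF_HF mice, 60.5, 66.3 and 76.8 in HF_LF mice, 63.8, 67 and 75.9 in LF_HF mice and 63.9, 68.1 and 73.7 in LF_LF mice, and differed by 0.01 ± 0.03 (adjusted p = 0.929). At so dim a signal this says little of the transcript.

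In complex IV, 1 of 15 probes passed the test as lower and 1 as higher. By sign alone, 10 of the 15 were higher and 5 were lower. Cox7a2l, which joins complexes III and IV into supercomplexes and which the C57BL/6 strains carry in a shortened form, gave 655, 757 and 919.5 in HF_HF mice, 759, 793 and 919.5 in HF_LF mice, 575, 689.7 and 753 in LF_HF mice and 672, 822 and 908 in LF_LF mice. 18 of 20 HF-fed mice lay below the LF-fed median (log2 difference -0.19 ± 0.04, 1.14-fold lower, limma adjusted p = 0.0047). Cox5a, a subunit on the matrix side, gave 983, 1124 and 1222 in HF_HF mice, 863, 951 and 1103 in HF_LF mice, 963, 1076 and 1147 in LF_HF mice and 896, 982 and 1092 in LF_LF mice. 18 of 20 HF-fed mice lay above the LF-fed median (log2 difference 0.16 ± 0.03, 1.12-fold higher, limma adjusted p = 0.00344). Its partner Cox5b differed by 0.06 ± 0.04 and the regulatory subunit Cox4i1 by 0.04 ± 0.03 (adjusted p = 0.549 and 0.536). Ndufa4 gave 1222, 1394 and 1950.1 in HF_HF mice, 1572, 1754 and 1950.1 in HF_LF mice, 1323, 1581 and 1853 in LF_HF mice and 1531, 1805 and 1839 in LF_LF mice. 18 of 20 HF-fed mice lay below the LF-fed median (log2 difference -0.22 ± 0.05, 1.17-fold lower, limma adjusted p = 0.00612), and the HF_HF group was the most widely spread of the 4. Without cage 4 the call of Ndufa4 was lost (adjusted p = 0.0616).

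Several complex IV subunits exist as tissue isoforms, and the muscle, lung and testis types were at or near the array median of about 63 units. Cox4i2 (lung type) ran from 53.9 to 66.8 units over all 40 mice, Cox8c (testis type) from 50 to 62.3, Cox7b2 from 50.1 to 63.1 and the brighter Cox6b2 probe (testis type) from 56.9 to 70.5. Cox6a2, the heart and muscle isoform, was tested at 64.7, 70.2 and 74.3 in HF_HF mice, 57.9, 64.7 and 76.6 in HF_LF mice, 63.5, 69.8 and 72.7 in LF_HF mice and 64.3, 70.5 and 80.9 in LF_LF mice and differed by 0.02 ± 0.03 (limma adjusted p = 0.751). Its common isoform Cox6a1 differed by 0.02 and 0.07 on its 2 probes. Cox7a1, another heart and muscle isoform that brown fat also makes, gave 63.9, 67.9 and 162 in HF_HF mice, 65.6, 71.9 and 159 in HF_LF mice, 62.7, 68.7 and 77.3 in LF_HF mice and 63.9, 75.1 and 78.6 in LF_LF mice, with 1 bright array in each of the HF_HF and HF_LF groups, and differed by -0.06 ± 0.08 (adjusted p = 0.744). Cox8b, a muscle and brown fat isoform, stayed between 52.3 and 72.4 units on 39 arrays and stood at 286 units on LF_LF 1. The common isoforms Cox4i1, Cox6b1, Cox7a2, Cox7b and Cox8a had no called probe.

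The study compared the diets within each dam diet, and by its own test listed more pancreas genes in sons of LF dams than of HF dams. Over all tested probes the order was the other way here (0.0408% from LF dams and 2.24% from HF dams). The cause of this was not tested. Among sons of HF dams, HF_HF mice differed from HF_LF mice in 4 of 81 member probes (4.94%), against 2.24% of all tested probes (3 lower, where 1.19% of all probes were, and 1 higher, where 1.05% were). Ndufv2 fell by 0.37 ± 0.07 on the log2 scale (1.29-fold, limma adjusted p = 0.00896) and Ndufa5 by 0.30 ± 0.06 (1.23-fold, adjusted p = 0.0121), each with 10 of 10 HF_HF mice below the HF_LF median. Ndufc2 fell by 0.24 ± 0.06 (adjusted p = 0.0474) and Cox5a rose by 0.22 ± 0.05 (adjusted p = 0.031). With all cages 274 of all tested probes passed, and leaving out any cage lowered this number and that of the members. Without cage 20 there were 3 members among 214 probes, without cage 1, 10 or 12 there were 2 members among 158, 48 and 132 probes, without cage 21 there was 1 among 13, and without cage 23, as with 1 mean per cage and group, there were 0 members and 2 probes. The log2 differences without cage 23 were -0.31 for Ndufv2, -0.32 for Ndufa5, -0.21 for Ndufc2 and 0.25 for Cox5a. Markers of other cells stood as follows. All 10 myeloid markers were higher in HF_HF mice (median log2 difference 0.32, with list levels of 6.78 to 8.70 in HF_HF mice and 6.70 to 7.33 in HF_LF mice), as were all 7 adipocyte markers (median 0.30, with levels of 6.47 to 7.73 in HF_HF mice and 6.47 to 7.23 in HF_LF mice). Of 10 hepatocyte markers 8 were lower (median -0.40, with levels of 6.76 to 7.42 in HF_HF mice and 6.55 to 8.47 in HF_LF mice), and 1 of 7 duct markers passed the test (Krt18, lower). Their part in the member differences was not tested.

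Among sons of LF dams, LF_HF mice differed from LF_LF mice in 0 of 81 member probes by limma, against 0.0408% of all tested probes, and 9 members (11.1%) had an unadjusted p under 0.05, where 8.95% of all probes did. Cox7a2l came closest, with a log2 difference of -0.27 ± 0.06 and 10 of 10 LF_HF mice below the LF_LF median (adjusted p = 0.157). It passed with all 40 arrays in 1 fit (adjusted p = 0.046), with array weights (0.0421), without the 3 arrays that stood apart (0.0455) and without LF_LF 1 (0.0213). Ndufa10 differed by 0.19 ± 0.06, Ndufv2 by -0.22 ± 0.07 and Uqcrh by -0.16 ± 0.06 (adjusted p = 0.286, 0.29 and 0.359). In Uqcrh the LF_HF group was the lowest of the 4, at 2327, 2887 and 3070.2 in HF_HF mice, 2569.6, 2829.9 and 3247 in HF_LF mice, 2177, 2539.8 and 2701 in LF_HF mice and 2268, 2831 and 3024 in LF_LF mice. Of the marker lists given for sons of HF dams, 7 of 10 myeloid (median -0.06) and 7 of 7 adipocyte markers (median -0.16) were lower in LF_HF mice. Of 10 hepatocyte markers 9 were higher (median 0.32), and 0 markers of these lists or of the 7 duct genes passed the test. The part of these cells in the member differences was not tested.

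A call from HF dams and none from LF dams does not show that the dam diet altered the response, so the difference of the differences was tested. It called 0 of 81 members and 0% of all probes by limma, with 2 members (2.47%) at an unadjusted p under 0.05 (Cox6a2 and Ndufb6), against 5.52% of all probes. By sign alone, 53 of the 81 interactions were below 0 (65.4%), against 51.4% of all probes, with medians of -0.04 and -0.00. In complex I 29 of 41 were below 0 and in complex IV 6 of 15. These sign counts were not tested. For Ndufb6, an accessory subunit of the membrane arm, the dimmer of 2 probes gave an interaction of -0.16 ± 0.07 (adjusted p = 0.866), with intensities of 68.7, 79.4 and 84 in HF_HF mice, 82, 84.3 and 92.4 in HF_LF mice, 62.5, 82.5 and 89.5 in LF_HF mice and 69.8, 75.9 and 93.6 in LF_LF mice. Its brighter probe, which the dimmer one did not follow over the 40 arrays (r = -0.02), gave -0.08 ± 0.08. For Cox7a2l and Uqcrh the interactions were 0.16 ± 0.08 and 0.14 ± 0.08, with adjusted p of 0.866 each.

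The diet differences from the 2 dam diets, which share no mouse and no cage, were set against each other. Over the 81 probes they correlated at r = 0.70 (Spearman's rho = 0.64), and 59 (72.8%) had the same sign, against r = 0.37 and 60.3% over all tested probes. All 8 complex III probes had the same sign in both, 27 of 41 did in complex I (r = 0.80) and 11 of 15 did in complex IV (r = 0.62). Without the 9 called members r was 0.49 over 72 probes. The value depended on single cages: r over the 81 probes was 0.43 without cage 4, 0.50 without cage 6, between 0.61 and 0.76 without any other cage, and 0.52 with cage as a fixed block. These are correlations across probes within 1 study, and probes are not independent replicates. For the 3 most negative differences from HF dams the values side by side were -0.37 from HF dams and -0.22 from LF dams for Ndufv2, -0.30 and -0.14 for Ndufa5, and -0.27 and -0.17 for Ndufa4.

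**Figure D3:**
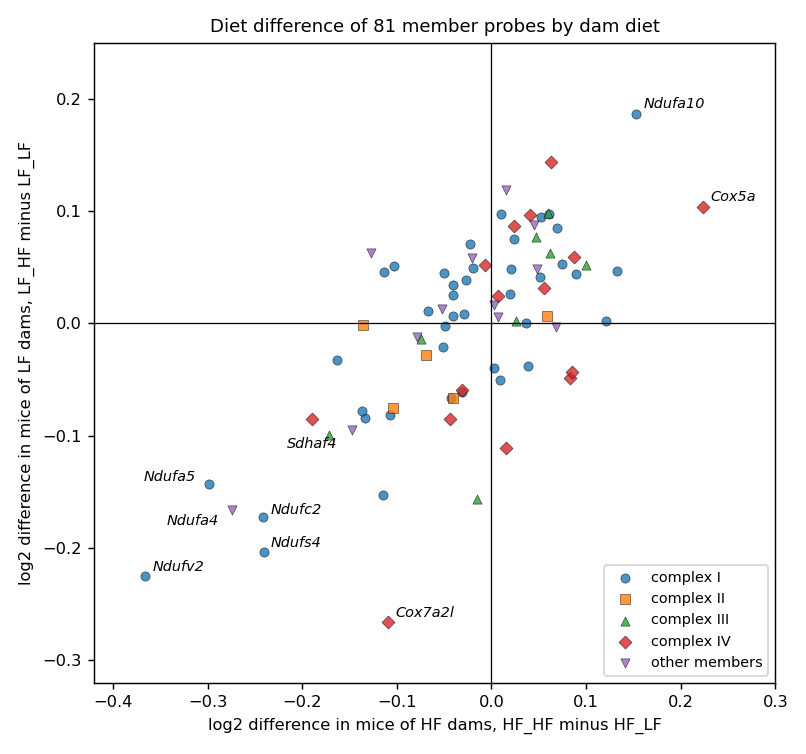
Each point is a member probe; the x axis is its log2 difference HF_HF minus HF_LF, the y axis LF_HF minus LF_LF, and the markers give the complex. Of the 81 points 59 lie in the lower left or upper right part, where both differences have 1 sign, with Ndufv2 farthest to the left at -0.37 and Cox7a2l lowest at -0.27.

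Dam diet was tested in mice on the same diet after weaning. The study, by its own test, listed pancreas genes that differed by dam diet on both diets, unlike the counts that follow. Between HF_HF and LF_HF mice 0 of 81 members passed by limma (0% of all probes), with 8 members (9.88%) and 6.21% of all probes at an unadjusted p under 0.05. Uqcrh differed by 0.17 ± 0.05, Cox7a2l by 0.17 ± 0.06, Ndufa8 by -0.11 ± 0.04 and Ndufv3 by -0.20 ± 0.08, with adjusted p of 0.75 to 0.768. Between HF_LF and LF_LF mice 0 of 81 passed (0% of all probes), with 2 members (2.47%) and 8.58% of all probes at an unadjusted p under 0.05, and Ndufb6 differed by 0.14 ± 0.05, Cox6a2 by -0.12 ± 0.05, Uqcrc2 by 0.14 ± 0.07 and Ndufb10 by 0.14 ± 0.07 (adjusted p of 0.406 to 0.604). Over both diets, sons of HF dams differed from sons of LF dams in 0 of 81 members, against 0.0653% of all probes, with 11 members (13.6%) and 9.66% of all probes at an unadjusted p under 0.05. The 2 bright probes of Ndufv3, an accessory subunit beside the NADH site, differed between sons of HF and LF dams by -0.16 ± 0.06 and -0.15 ± 0.05 (adjusted p = 0.333 and 0.269), and the dim one, at the array median, differed by 0.01 ± 0.03. Uqcrh and Ndufa10 differed by 0.10 ± 0.04 and -0.10 ± 0.04 (adjusted p = 0.333 and 0.351).

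Because mice of 1 cage share a dam diet and an early environment, the called members were also compared within the 5 cages that held both diets. These members had been picked for their diet difference over all mice, those of the 5 cages among them. A shared sign within these cages is therefore partly built in and is no independent test. Ndufv2 was lower in HF-fed cage mates in 5 of 5 cages, by 0.11 to 0.51 on the log2 scale, and Ndufa5, Ndufc2, Ndufs4, Ndufa4 and Sdhaf4 were also lower in 5 of 5. Cox5a was higher in 5 of 5 cages, by 0.13 to 0.22. Ndufa10 was higher in 4 of 5 and Cox7a2l lower in 4 of 5. In cage 11, of LF dam diet, Ndufv2, Ndufa5 and Ndufc2 differed by -0.11, -0.01 and -0.06. Ndufs4, Ndufa4 and Sdhaf4 differed there by -0.04, -0.00 and -0.05. Each of these was the smallest difference of the 5 cages, as was that of Cox5a (0.13). Cox7a2l had its most negative difference in this cage (-0.24), and Ndufa10 differed by 0.19. With the cage as a fixed block, which leaves the estimate to these 5 cages and 23 mice, limma still called Ndufv2 (-0.37 ± 0.06, adjusted p = 0.00114) and Ndufc2 (-0.23 ± 0.06, adjusted p = 0.0474). The other 7 kept their sign, with adjusted p of 0.0599 (Cox5a) to 0.273 (Cox7a2l). Uqcrc2, a member not called over all mice, was also lower in 5 of 5 cages (-0.22 ± 0.07 with the fixed block, limma adjusted p = 0.0953).

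**Figure D4:**
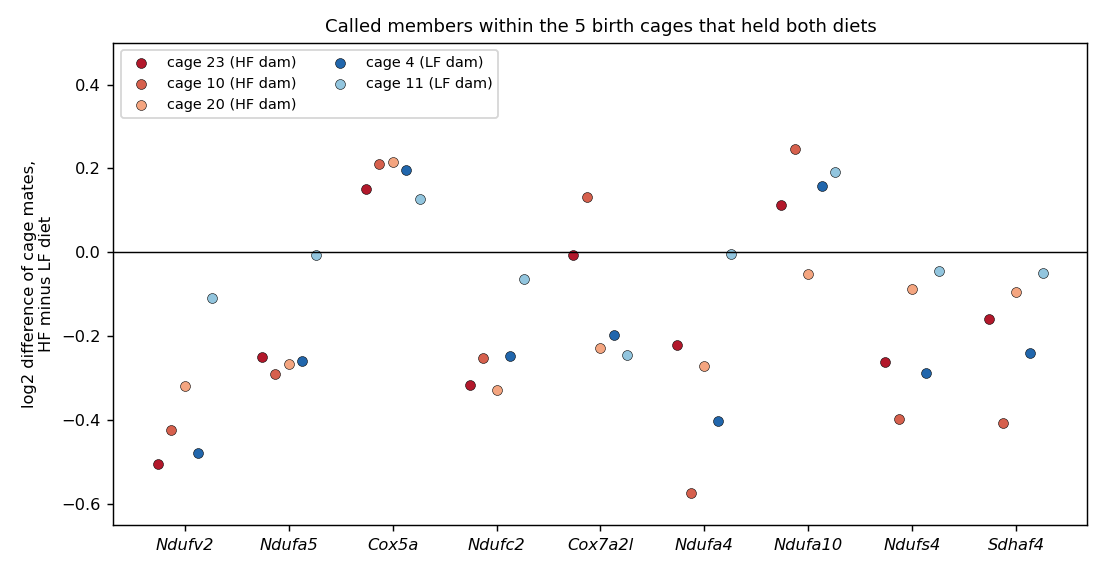
Each point is 1 of the 5 birth cages that held both diets, and the y axis is the mean log2 intensity of its HF-fed mice minus that of its LF-fed mice (1 to 3 mice on each side), for the 9 called members. All 5 points lie below 0 for Ndufv2 (-0.51 to -0.11) and above 0 for Cox5a (0.13 to 0.22); Ndufa10 and Cox7a2l each have 1 point across the line.

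The members that fell also varied together among mice of the same group. After each group's mean was taken away, the 21 pairs of the 7 genes correlated at 0.13 to 0.77, with a median of 0.59. The highest was Ndufc2 with Ndufs4 (0.77) and the lowest Cox7a2l with Sdhaf4 (0.13). Pairs of any 2 member genes had a median of 0.06 (2211 pairs), pairs within complex I 0.10, and a member with a gene outside the rule 0.01. The genes that fell and those that rose had a median of -0.23. Ndufa10 ran from -0.51 (with Ndufs4) to -0.23 with the 7 genes, and Cox5a from -0.25 to 0.08. Ndufa10 and Cox5a correlated with each other at 0.07. The 7 genes had been picked for their diet difference. Without the 3 arrays that stood apart (37 arrays) the median of the 21 pairs was 0.57 and that of all member pairs 0.03. The median of genes that fell with genes that rose was then -0.17. These values are given with no test.

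**Figure D5:**
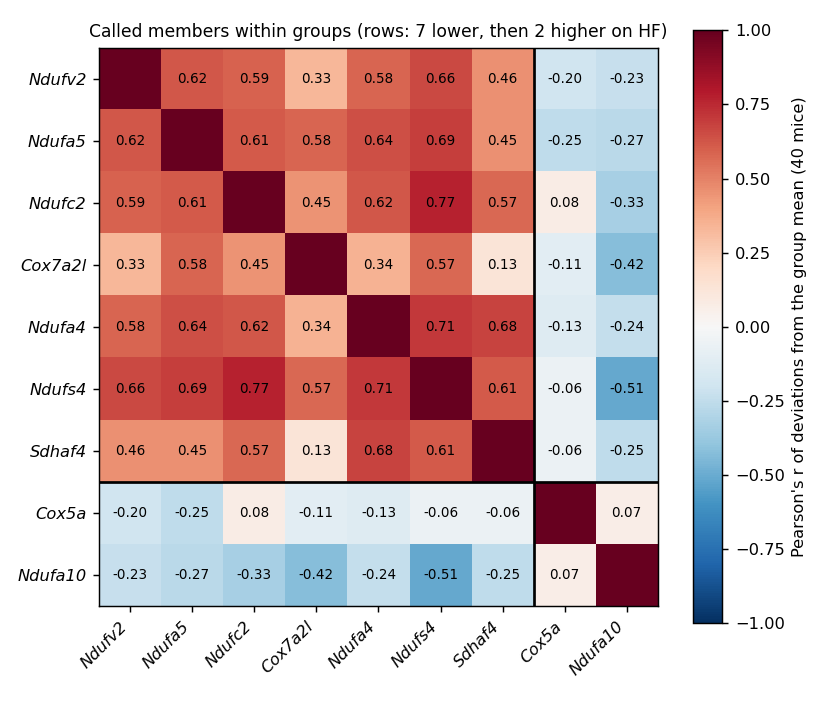
Each cell is Pearson's r between 2 called members over 40 mice after subtraction of the group means; the colour scale runs from -1 to 1 and lines part the 7 genes that fell from the 2 that rose. All 21 pairs of the genes that fell are above 0 (0.13 to 0.77), and Ndufa10 is below 0 with each of the 7.

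Some mice stood at the end of their group in several of these genes. HF_HF 7 had the highest value of its group in 6 of the 7 genes that fell, HF_LF 2 in 5, and LF_LF 8 and LF_HF 8 in 4 each, while LF_LF 1 had the lowest in 5. The mean level of the 7 genes followed, within groups, the mean of 15 mitochondrial import and prohibitin genes (r = 0.63, or 0.53 without the 3 arrays), of 8 complex I assembly factors outside the rule (0.58 and 0.53) and of 22 complex III and IV assembly genes (0.52 and 0.47). It was 0.48 with ATP synthase genes (0.26 without the 3 arrays), 0.29 with cytosolic ribosomal protein genes (0.12), 0.28 with biogenesis regulators (0.18) and 0.06 with tricarboxylic acid cycle genes (-0.07). With acinar, adipocyte, myeloid, and T and NK cell markers r was 0.40, -0.52, -0.41 and -0.50 over 40 arrays, and 0.14, -0.29, -0.07 and -0.31 without the 3 arrays. The part of cell makeup in the diet differences was not tested. The mean log2 level of the 7 genes was 8.89 to 9.28 in HF_HF mice, 9.10 to 9.45 in HF_LF mice, 8.87 to 9.15 in LF_HF mice and 8.92 to 9.33 in LF_LF mice.

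Where a gene had several tested probes, as 10 did, the probes did not always move alike. Those of Uqcr10 (r = 0.90), Ndufa8 (0.66), Cox6b1 (0.59), Cox6a1 (0.52) and Ndufc1 (0.49) followed each other over the 40 arrays, as did the 2 bright probes of Ndufv3 (0.88) and of Sdhb (0.84). The probe pairs of Ndufa5 (-0.13) and Ndufb6 (-0.02) did not. The called Ndufs4 probe did not follow its other probes (-0.03 to 0.15), which followed each other (0.94 to 0.95). Ndufv2, Ndufc2, Ndufa4, Cox7a2l, Ndufa10, Cox5a and Sdhaf4 rest on 1 tested probe each.

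Genes around the chain were counted in lists that the symbol rule does not hold. On average over dam diets, 5 of 17 ATP synthase genes passed by limma, 2 higher (Atp5g3, 0.17, and Atp5d, 0.11) and 3 lower (Atpif1, -0.35, Atp5l, -0.30, and Atp5pb, -0.21), with a list median of -0.05. Atpif1 codes for the inhibitor that stops ATP synthase from running backwards, and its difference was larger than that of any member (1.28-fold lower, adjusted p = 3.84e-05). Of 22 complex III and IV assembly genes 1 passed as higher (Higd2a, 0.16) and 1 as lower (Slirp, -0.16). Of 8 complex I assembly genes outside the rule 0 passed, with 3 at an unadjusted p under 0.05. Of 14 tricarboxylic acid cycle and pyruvate dehydrogenase genes 1 passed as higher (Ogdh, 0.17) and 1 as lower (Pdha1, -0.16). Of 15 import and prohibitin genes 1 passed as lower (Tomm7, -0.16). Of 10 biogenesis regulators 1 passed as higher (Polrmt, the mitochondrial RNA polymerase, 0.15). Outside the organelle, 1 of 49 cytosolic ribosomal protein genes passed as higher and 10 as lower. By sign alone, 10 of the 49 were higher and 39 were lower, with a median of -0.05. Among all 8858 tested genes, counted by 1 probe each, 273 passed as higher and 235 as lower (5.73% together). By sign alone, 4362 were higher and 4496 were lower, with a median of -0.00.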

How the data were processed

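RNA of 40 pancreases was hybridised singly to beadchips (MouseRef-8 v2.0, Illumina). The deposited values are linear intensity after BeadStudio and quantile normalization over all arrays by the authors, with no sign of background subtraction (lowest value 43); sorted values differed by at most 1.86% between arrays, and the BeadStudio version was not given in the sources used here. Probe symbols came from the platform annotation (23978 probes with 1 symbol and 1719 with none). Values were log2 transformed here. A probe was tested where it exceeded its array's median on 20 or more arrays. The 4 pairs were fitted with limma 3.58.1 (R 4.3.3, lmFit and eBayes with an intensity trend) on their 20 arrays, and the averaged effects and the interaction on all 40. P-values were adjusted by Benjamini-Hochberg over all 12246 tested probes, with a threshold of 0.05. In each of the 7 comparisons every called member was named, or the 4 with the lowest p, besides isoforms, complex II, Cyc1 and Cycs. The symbol rule uses no expression value, but this set of members and the lists were chosen with earlier results of these data known. The number of mice limits the precision, and no depth applies to arrays. Alternatives were a regularized test after Cyber-T (the framework of the methods), no trend, other scalings, background subtraction, other filters, array weights, cage as a block, 1 mean per cage and group, and leaving out cages or the 3 arrays that stood apart; leaving out each single array was chosen after seeing the data. Arrays stood apart when their distance from the others lay over 3 interquartile ranges above the upper quartile. The fits were also run on simulated data, drawn independently for each probe and mouse. These held no cage effects, correlated genes or outlying arrays, so they could not test how the fits handle such features. Promoters came from RefSeq (GRCm38.p6), matched by gene ID. Figures were drawn with matplotlib 3.10.9. The mitochondrially encoded subunits, Sdha and Ndufa4l2 were not analysed here.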

Additional observations from a re-analysis of the deposited data

Results flagged for a closer look

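Among the named members, 8 of 132 sets of 10 values (33 probes in 4 groups) had 1 array far from the other 9 by Dixon's criterion; chance alone flags about 1 in 20 such sets.
Array LF_LF 1, which stood apart as a whole, gave 3 of the 8. Its Ndufa5 value was 424.7 units (others 518 to 636), its Uqcrh value 2268 units (others 2617 to 3025) and its Cox8b value 286 units (others 54.6 to 72.4). This array also had the highest adipocyte, myeloid, T and NK cell, fibroblast, endothelial and striated muscle (6.29) marker levels of its group. Its acinar, islet, duct and brown adipocyte (5.97) levels were the lowest of the group. The part of these cells in the 3 values was not tested.
The muscle and brown fat isoform Cox7a1 had 1 bright array in each of the HF_HF and HF_LF groups: HF_HF 8 at 162 units (others 63.9 to 79.5) and HF_LF 5 at 159 units (others 65.6 to 78.6). Both arrays had the highest duct marker level of their groups (7.76 in HF_HF 8 and 7.81 in HF_LF 5, mean log2). The lists of 2 brown adipocyte and 4 striated muscle genes lay near the array median on all 40 arrays. Their levels were 5.94 to 6.28 and 5.96 to 6.29. A marker bright on a few arrays alone would have failed the filter, so these lists say little of such cells on single arrays. The source of the bright Cox7a1 values was not tested.
Of the dim probes, Cox4i2 was high in HF_HF 2 at 66.8 units (others 56.9 to 61.5), 1 Ndufb6 probe was low in HF_HF 2 at 68.7 units (others 77.5 to 84), and the untested Cycs probe was low in HF_HF 9 at 55.2 units (others 60.8 to 65.8).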

How the results depend on the processing

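Leaving out single arrays or cages, the 9 calls of the averaged diet comparison numbered 7 to 12. They numbered 15 with array weights, 5 with 1 mean per cage and group and 2 with cage as a fixed block, which uses 5 cages only, and 8 to 11 under the other settings. The 9 members kept their direction under every setting, cage and array tried. Of 99 values under the settings 12 lost the call, of 108 without a cage 9 did (8 of them Sdhaf4, and Ndufa4 without cage 4), and of 360 without an array 19 did, all for Sdhaf4. The 4 calls between HF_HF and HF_LF mice became 2 after Cyber-T, 2 with no filter, 1 with the fixed block and 0 with cage means. Counts over all tested probes under Cyber-T, no filter and the fixed block are not given here. The loss of member calls is thus not set against a general loss. Leaving out a cage or array gave 0 to 6 calls, with 2 left without HF_HF 2, 6, 8 or 10 or without HF_LF 2, 4 or 6. In 20 fits without 1 array, Ndufv2 and Ndufa5 kept the call in 20, Cox5a in 13 and Ndufc2 in 3. In 6 fits without 1 cage, Ndufv2 kept it in 5, Ndufa5 in 4, and Cox5a and Ndufc2 in 0. Between LF_HF and LF_LF mice 1 call (Cox7a2l) appeared with all 40 arrays in 1 fit, array weights 1, or without the arrays that stood apart 1; leaving out a cage or array gave 0 to 1 (1 without LF_LF 1). The comparisons of dam diets and the interaction gave 0 calls under every alternative. The cause of these changes was not tested. Small differences changed sign: Cycs with the fixed block was -0.023, and without a cage or array it ranged from -0.0023 (cage 12) to 0.019 (cage 23); Cox7a1 ranged from -0.13 (without cage 21) to 0.028 (without cage 23), and Sdhd from -0.016 (without cage 4) to 0.084 (without cage 11). No paired analysis was possible by replicate number, because the labels give none that pair mice across groups; mice of both diets in 1 cage were compared with cage as a block. Probes near the array median (Cycs and the tissue isoforms) say little of a change in their transcripts.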
